A study of Homo sapiens with 2 samples.

Results

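The class I antigen presentation genes HLA-B, HLA-C, HLA-E, B2M, TAP1, TAP2, TAPBP, PSMB8 and PSMB9 were followed by name through the count table and both FPKM tables. All 9 were present among the 19927 gene rows. Huh7, an established human hepatocellular carcinoma line, was sequenced as 1 library with a control hairpin (shControl in its title, WT in its genotype label) and 1 library with a short hairpin RNA against PPIL1 (shPPIL1#1, PPIL1 knockdown, called shPPIL1 here). Cells were grown in DMEM with fetal bovine serum, per the labels, and no other treatment is named. With 1 library per group and 1 hairpin against the target, no replicate check and no test between conditions was possible. "Higher" and "lower" refer to the shPPIL1 library against the shControl library.

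Class I molecules show peptides from inside a cell to CD8 T cells. The proteasome cuts proteins into peptides, and after interferon its catalytic subunits can be replaced by the immunoproteasome subunits PSMB8, PSMB9 and PSMB10. TAP1 and TAP2 together pump the peptides into the endoplasmic reticulum, where tapasin (TAPBP) holds an empty heavy chain beside the transporter until a peptide fits. The heavy chain, encoded by an HLA gene, travels to the cell surface with the light chain beta-2-microglobulin (B2M). HLA-B and HLA-C are classical heavy chains, which vary widely between people, and HLA-E is a nonclassical chain read by natural killer cells. Hepatocytes are known for low class I levels that rise with interferon.

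Most of the members lie together in the genome. On chromosome 6 (GRCh38), TAP2 (32821831 to 32838739), PSMB8 (32840717 to 32844679), TAP1 (32845209 to 32853704) and PSMB9 (32854192 to 32859851) fill a stretch of 38021 bases. TAP1 and PSMB9 run in opposite directions from starts that are 487 bases apart. HLA-E (30489509 to 30494194), HLA-C (31268749 to 31272092), HLA-B (31353875 to 31357179) and TAPBP (33299694 to 33314078) lie on the same arm of chromosome 6, which also holds the target PPIL1 (36854829 to 36874803). B2M is the exception, on chromosome 15 from 44711517 to 44718145.

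The 250 bases before the start are shown for the classical heavy chains and the light chain, which are encoded on different chromosomes and form the same complex, and for TAP1 and PSMB9, which share their upstream region. They come from RefSeq (GRCh38.p14) and run 5′ to 3′ on the strand of the gene. Capitals mark matches, on either strand, to the interferon-stimulated response element (ISRE, here GAAA, any 2 bases and GAAA again), to the NF-kappaB consensus and to the CCAAT box (CCAAT).
HLA-B, chr6:31357180-31357429, minus strand: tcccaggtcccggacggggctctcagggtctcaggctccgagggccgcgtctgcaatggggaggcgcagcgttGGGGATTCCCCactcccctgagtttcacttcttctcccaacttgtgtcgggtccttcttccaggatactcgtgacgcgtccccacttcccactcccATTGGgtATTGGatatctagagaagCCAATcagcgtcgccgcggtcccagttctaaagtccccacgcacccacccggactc
HLA-C, chr6:31272093-31272342, minus strand: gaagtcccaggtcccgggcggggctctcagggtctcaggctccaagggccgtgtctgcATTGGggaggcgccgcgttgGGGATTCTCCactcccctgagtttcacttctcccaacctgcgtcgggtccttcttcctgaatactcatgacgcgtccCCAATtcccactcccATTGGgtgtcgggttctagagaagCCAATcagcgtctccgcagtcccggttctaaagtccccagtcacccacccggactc
B2M, chr15:44711267-44711516, plus strand: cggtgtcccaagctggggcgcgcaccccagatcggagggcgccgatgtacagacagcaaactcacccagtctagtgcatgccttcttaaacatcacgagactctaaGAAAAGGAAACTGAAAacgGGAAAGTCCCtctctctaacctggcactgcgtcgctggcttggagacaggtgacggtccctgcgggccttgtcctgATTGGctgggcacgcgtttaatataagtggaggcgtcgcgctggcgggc
TAP1, chr6:32853705-32853954, minus strand: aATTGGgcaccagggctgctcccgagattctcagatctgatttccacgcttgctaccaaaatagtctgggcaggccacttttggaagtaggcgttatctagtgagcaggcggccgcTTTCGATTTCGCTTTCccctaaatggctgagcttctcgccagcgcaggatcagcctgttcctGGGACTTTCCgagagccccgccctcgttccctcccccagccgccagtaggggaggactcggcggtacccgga
PSMB9, chr6:32853942-32854191, plus strand: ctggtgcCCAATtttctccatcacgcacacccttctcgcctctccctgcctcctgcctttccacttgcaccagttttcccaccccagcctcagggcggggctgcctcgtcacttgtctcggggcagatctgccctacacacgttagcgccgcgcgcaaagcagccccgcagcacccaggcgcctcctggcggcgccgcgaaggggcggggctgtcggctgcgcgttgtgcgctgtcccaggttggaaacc

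The windows of HLA-B and HLA-C were identical at 226 of 254 aligned positions, or 89.0%. Those of HLA-B and B2M were identical at 47.3% of aligned positions. The TAP1 and PSMB9 windows, read on opposite strands, overlap by 13 bases and together cover the whole space between the starts. The overlapping ISRE matches in it begin 134 and 128 bases upstream of TAP1, and lie 354 and 360 bases upstream of PSMB9, beyond the window printed for PSMB9. TAP2 and TAPBP also had ISRE matches, shown with capitals for the ISRE alone.
TAP2, chr6:32838778-32838807, minus strand: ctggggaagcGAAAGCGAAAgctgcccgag
TAPBP, chr6:33314079-33314108, minus strand: ccctttggagGAAAGTGAAAGTGAAAggag

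Of the 8 members with a RefSeq window, 4 held an ISRE match (B2M, TAP1, TAP2 and TAPBP), against 3.02% of 35116 promoter windows of all genes. The NF-kappaB consensus was matched in 5 (B2M, HLA-B, HLA-C, TAP1 and TAPBP), against 9.96% of all windows. The CCAAT box was matched in 5 of 8 (B2M, HLA-B, HLA-C, PSMB9 and TAP1), against 32.0%, and the CRE half-site TGACG in 6 of 8, against 21.2%. The CCAAT matches of TAP1 and PSMB9 are the same site, in the 13 bases where their windows overlap. The HLA-B and HLA-C windows are 89.0% identical, so members with a match are not independent of one another. Matches to GGGCGG, the GC box, stood in 5 of 8 members and 42.6% of all windows, and those to the gamma-activated site TTCNNNGAA in 2 of 8 and 6.57%. TAP1 and PSMB8 have another start in RefSeq, and a match in either of their windows was counted. Both matches to the gamma-activated site stood in that other window, so the count was 0 of 8 over the first window of each gene, and the counts of the remaining motifs were the same over first windows. A match describes the letters only and is not a binding measurement. Variants of an element that depart from these letters were not counted, so HLA-B and HLA-C without an ISRE match may still hold one.

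The knockdown and the identity of the cells were checked first. The targeted gene, PPIL1, had 1505 reads in the shControl library and 104 in the shPPIL1 library, in the direction of the labels. The libraries held 41015345 and 41165401 counted reads. All 9 hepatocyte markers listed were measured, among them AFP and ALB, with ratios from 0.997 to 1.18 between the libraries. Leukocyte-defining transcripts were at or near 0: PTPRC had 4 and 10 reads, CD3E 1 and 2, and MS4A1 and TYROBP 0 in both libraries, while LYZ (13650 and 11091 reads) and CD68 (1333 and 1249 reads) were read in these cells. Of the 12 leukocyte markers, 3 were kept, and the summed level was 245 FPKM in shControl and 201 FPKM in shPPIL1. Of 9 fibroblast and endothelial markers, 3 were kept, with sums of 17.2 and 17.2 FPKM. LUM had 1512 reads in shControl and 1508 in shPPIL1, COL1A1 415 and 470, and PECAM1 410 and 352, while COL1A2 and KDR were at 0.

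Within each library the members' levels differed widely, compared per gene length as FPKM (reads scaled to gene length and library size). The level of B2M, the highest, was 2989 times that of HLA-B, the lowest, in shControl. The order from highest to lowest was the same in both libraries. B2M stood at 901 FPKM in shControl and 1022 FPKM in shPPIL1, with 0.367% and 0.303% of kept genes above it. A gene counted as kept if either library reached 1 CPM (reads scaled to library size). The 12540 kept genes had a median level of 9.28 FPKM in shControl and 9.40 FPKM in shPPIL1. PSMB9, TAP2 and TAP1 followed at 19.2, 18.5 and 14.9 FPKM in shControl. HLA-E was close to the median gene, at 10.0 FPKM in shControl and 11.7 FPKM in shPPIL1. TAPBP and HLA-C were below the median gene, at 6.25 and 4.60 FPKM in shControl. PSMB8 and HLA-B stood lowest, at 1.13 and 0.302 FPKM in shControl and 0.852 and 0.158 FPKM in shPPIL1. With 1 library per group the order of close neighbours, such as PSMB9 and TAP2, has no spread to be judged by.

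**Figure D1:**
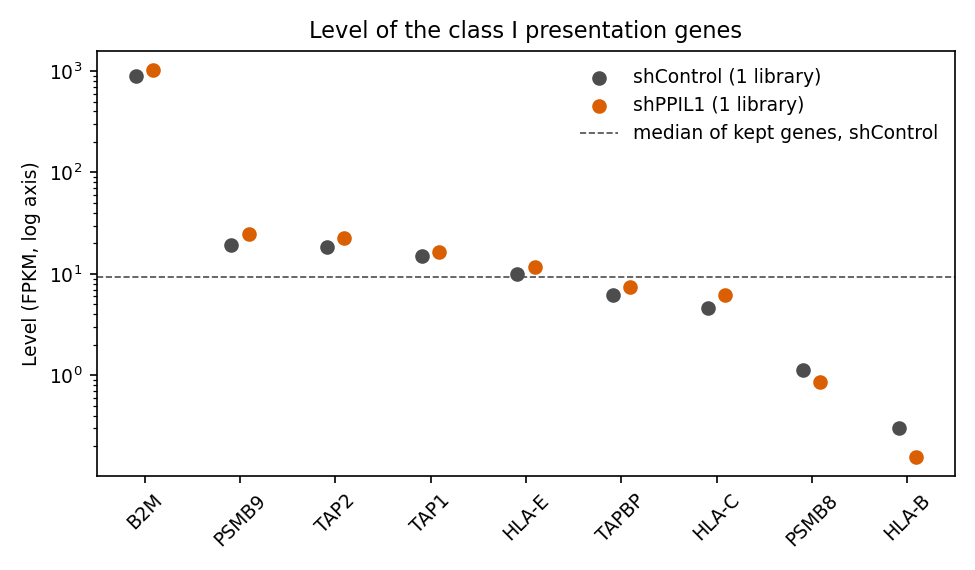
Level in FPKM (log axis) of each of the 9 class I genes in the shControl and the shPPIL1 library, 1 point per library, ordered by the shControl level; the dashed line is the median of kept genes in shControl. B2M lies far above the other genes, PSMB8 and HLA-B far below the median, and 7 of the 9 genes have the higher point in shPPIL1.

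Of the 9 members, 7 were higher in the shPPIL1 library with a counting interval above equality, by 1.09-fold to 1.33-fold. PSMB8 and HLA-B, the least expressed members, had fewer reads in shPPIL1, with intervals that included equality. HLA-B did not pass the filter of 1 CPM in either library, so 8 members were kept. Of the 8, 3 were at least 1.2-fold higher with an interval above 1 (HLA-C, PSMB9 and TAP2), and 0 were at least 1.2-fold lower. Over all 12540 kept genes, 8.32% were called higher and 9.52% lower by that rule. By the interval alone, 24.6% of kept genes lay above 1 and 26.4% below it, against 7 and 0 of the 8 members. Whether an interval excludes 1 depends on the number of reads. Of the 9 hepatocyte markers, 7 also had an interval above 1 and 0 below it, with a median log2 ratio of 0.09. The 8 kept members had a median log2 ratio of 0.22, and all kept genes one of -0.0017. Each interval is an exact 95% interval (Clopper-Pearson) and covers counting error only, and differences between cultures would add to it. In bulk RNA, a change in the share of cells that express a gene and a change in RNA per cell cannot be told apart.

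**Figure D2:**
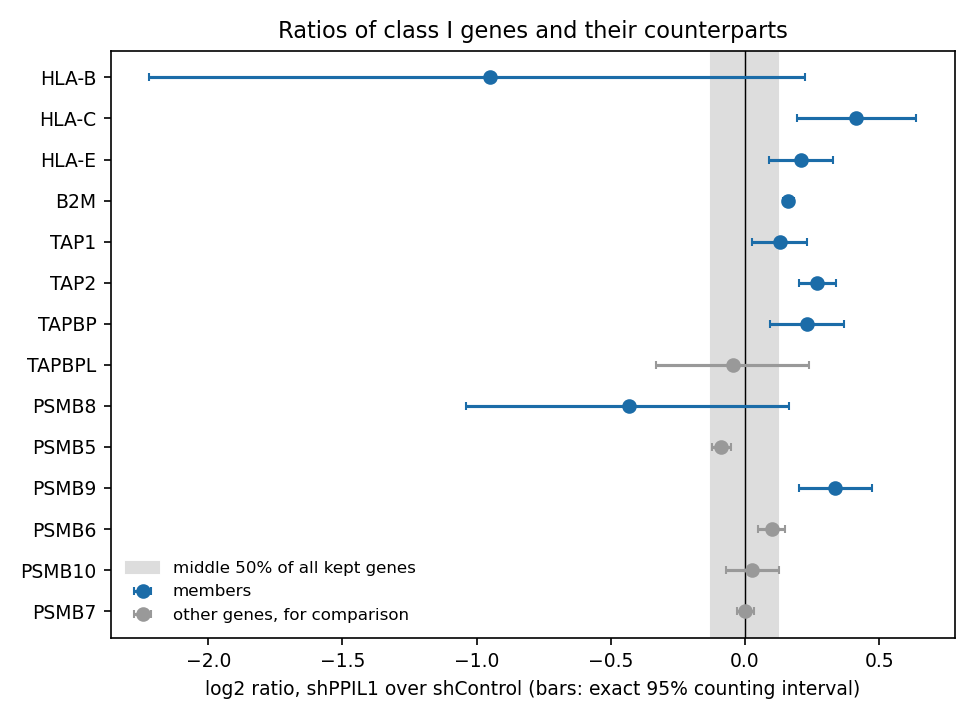
The log2 ratio of shPPIL1 over shControl for the 9 members (blue) and for TAPBPL and other proteasome subunits (grey), with exact 95% counting intervals and the middle 50% of all kept genes as a band (-0.13 to 0.12). Blue points other than HLA-B and PSMB8 lie above 0 with intervals above 0, and the intervals of HLA-B and PSMB8 are wide and cross 0.

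HLA-C and HLA-E were higher, and HLA-B had too few reads for a direction. HLA-C had 291 reads in shControl and 395 in shPPIL1, and 4.60 and 6.22 FPKM. Its ratio of 1.33 (1.14 to 1.56) was the highest of the members, and 4.38% of kept genes had a higher ratio. HLA-E had 1073 and 1261 reads, a ratio of 1.15 (1.06 to 1.25), below the 1.2-fold threshold. HLA-B had 19 reads in shControl and 10 in shPPIL1, a ratio of 0.517 (0.215 to 1.17), so that its direction was not detectable at this depth. The cross ratio of HLA-B to HLA-C, in which the library scaling cancels, was 0.388 (exact conditional 95% interval 0.159 to 0.893), an interval below 1 when counting error alone is considered.

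The reads of HLA-B, HLA-C and HLA-E together were 1383 in shControl and 1666 in shPPIL1, a ratio of 1.18 (1.101 to 1.27). HLA-F, a nonclassical chain outside the members, had 9 and 24 reads, a ratio of 2.62 (1.18 to 6.40), and was not kept, and HLA-G, the chain of the placenta, had 0 reads in both libraries. HLA genes resemble one another, and how reads that match several genes or alleles were treated is not given in the sources used here. In GENCODE release 29 transcripts, exact 100-base windows shared with a gene elsewhere made up 0.685% of the windows of HLA-C, 0.398% of those of HLA-E and 0 of those of HLA-B. Genes that overlap a member in GENCODE were left out of that search, so the value of HLA-C does not count windows shared with HLA-B. The reference carries 1 allele of each gene, and the alleles of these cells were not used here, so the levels of HLA-B and HLA-C are uncertain in a way the counting intervals do not cover.

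B2M, the light chain of all these molecules, gave the most precise ratio of the members. It had 35493 reads in shControl and 40398 in shPPIL1, a ratio of 1.12 (1.102 to 1.13), and 19.4% of kept genes had a higher ratio. Per length, the level of B2M was 60.4 times the summed level of HLA-B, HLA-C and HLA-E in shControl and 56.5 times in shPPIL1. B2M also pairs with other class I-like chains. Of these, FCGRT, the neonatal Fc receptor, stood at 33.3 FPKM in shControl and 37.4 FPKM in shPPIL1, above HLA-B, HLA-C and HLA-E. Relative to B2M, the cross ratio of HLA-C was 1.19 (1.02 to 1.39) and that of HLA-E was 1.03 (0.9498 to 1.12), so HLA-E and B2M differed between the libraries by factors that counting error cannot separate.

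The transporter subunits were both higher. TAP2 had 3101 reads in shControl and 3803 in shPPIL1, a ratio of 1.205 (1.15 to 1.26), just past the 1.2-fold threshold. TAP1 had 1486 reads in shControl and 1654 in shPPIL1. Its ratio of 1.09 (1.02 to 1.17) was the smallest among the members whose interval lay above 1. The cross ratio of TAP1 to TAP2 was 0.908 (0.833 to 0.989 by counting error alone), and whether it would exceed the spread between cultures was not tested. Their levels were close, with TAP1 at 0.802 times the FPKM of TAP2 in shControl and 0.728 times in shPPIL1. In GENCODE, 36.2% of the exonic bases of the TAP2 transcript used here overlap a gene on the same strand (AL669918.1), and 15.4% of those of TAP1 overlap PSMB8-AS1 on the opposite strand. These TAP2 and TAP1 transcripts have 5676 and 2959 bases, while the deposited FPKM correspond to gene lengths of 4077 and 2436 bases. The overlap within the gene models that were counted is therefore not known. For HLA-B, 24.0% of exonic bases overlap AL671883.2 on the opposite strand, and 2.12% of those of HLA-C overlap HLA-B itself. AL669918.1, PSMB8-AS1 and AL671883.2 have no row in the count table, and the strand setting of the counting is not given.

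TAPBP, the tapasin gene, had 780 reads in shControl and 932 in shPPIL1. Its ratio was 1.17 (1.07 to 1.29), just under the 1.2-fold threshold. Its relative TAPBPL, which edits peptides away from the transporter, had 209 and 206 reads, with a ratio of 0.968 (0.795 to 1.18). The cross ratio of TAPBP to TAPBPL was 1.21 (0.972 to 1.51), an interval that includes equality.

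Of the immunoproteasome subunits among the members, PSMB9 was higher and PSMB8 was barely expressed. PSMB9 had 801 reads in shControl and 1030 in shPPIL1, and 19.2 and 24.6 FPKM. Its ratio was 1.26 (1.15 to 1.39), with 6.53% of kept genes higher. PSMB8 had 57 and 43 reads, a ratio of 0.741 (0.487 to 1.12), with an interval that includes equality. PSMB10, the remaining immunoproteasome subunit, had 1618 and 1678 reads and a ratio of 1.02 (0.951 to 1.09). By counting error alone, the level of PSMB8 in shPPIL1 could lie anywhere from 2.05-fold lower to 1.12-fold higher.

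Each immunoproteasome subunit takes the place of a constitutive one. PSMB6, the counterpart of PSMB9, was at 9.52 times the FPKM of PSMB9 in shControl and 8.07 times in shPPIL1, and the cross ratio of PSMB9 to PSMB6 was 1.18 (1.07 to 1.30). PSMB7 was at 9.43 and 9.27 times the FPKM of PSMB10, with a cross ratio of PSMB10 to PSMB7 of 1.02 (0.946 to 1.09). For PSMB8 the gap was far wider, with PSMB5 at 276 times its FPKM in shControl and 349 times in shPPIL1, and a cross ratio of 0.788 (0.518 to 1.19). In both libraries the RNA level of each constitutive subunit was above that of its immunoproteasome counterpart.

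TAP1 and PSMB9, which share the upstream sequence printed above, were both higher in these libraries. The cross ratio of TAP1 to PSMB9 was 0.866 (0.769 to 0.974), an interval that covers counting error only and has no replicate spread beside it. PSMB8, which starts 529 bases beyond the end of TAP1 on the same strand, had an interval that reached from below to above equality.

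**Figure D3:**
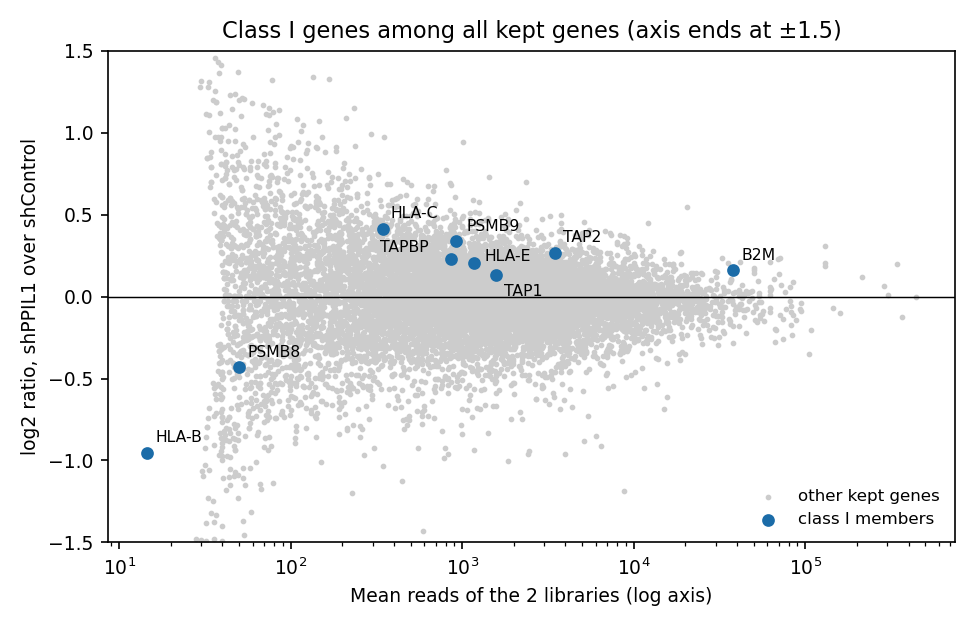
The log2 ratio of shPPIL1 over shControl against the mean reads of the 2 libraries (log axis), with kept genes other than PPIL1 in grey and the 9 members in blue; 40 grey genes lie beyond the axis ends of ±1.5. HLA-B and PSMB8 lie at the widely scattered low end of the grey cloud, and the other 7 members lie in its upper part, inside its spread.

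Genes around the members on chromosome 6 were not higher as a group. From the start of HLA-E to the end of TAPBP (30489509 to 33314078), 79 of the 124 genes in the count table were kept. Without the members, 72 genes remained, with a median log2 ratio of 0.02 and a middle 50% from -0.09 to 0.13. By the 1.2-fold rule 7 of them were higher and 5 lower, or 9.72% and 6.94%, beside 8.32% and 9.52% of all kept genes. The class II loading genes HLA-DMB and HLA-DMA, the kept genes nearest to PSMB9 on its far side, had ratios of 0.818 (0.709 to 0.943) and 0.964 (0.726 to 1.28).

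**Figure D4:**
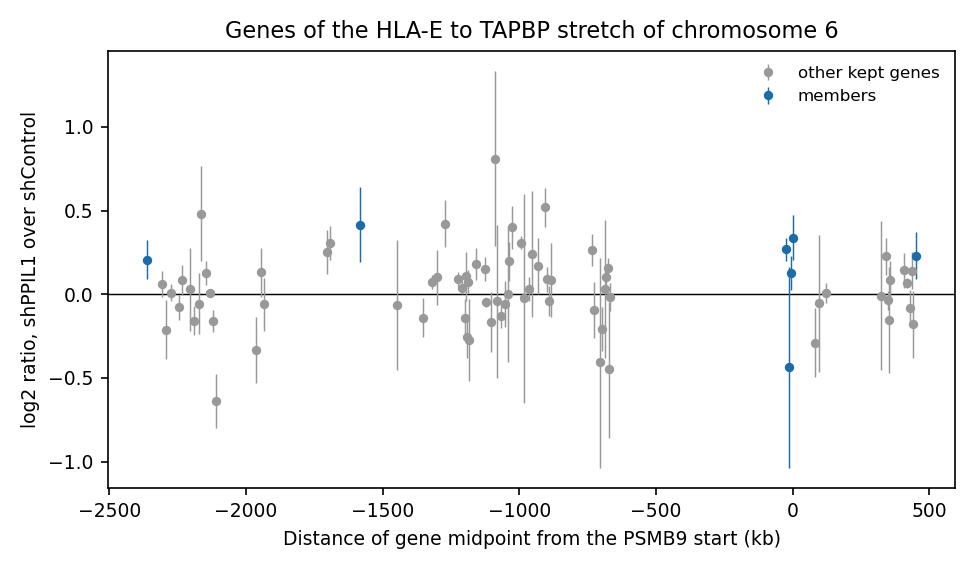
The log2 ratio of shPPIL1 over shControl, with exact 95% counting intervals, of the 79 kept genes between HLA-E and TAPBP on chromosome 6, by distance of the gene midpoint from the PSMB9 start in kb; members are blue. Grey genes scatter around 0 on both sides along the whole stretch, and the blue points other than PSMB8 lie above 0.

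Other genes of peptide loading and trimming differed little. Of 13 listed, 13 were kept, 0 were at least 1.2-fold higher or lower, and the median log2 ratio was 0.03. Over all kept genes, 8.32% were called higher and 9.52% lower. By the interval alone, 4 of the 13 lay above 1 and 3 below it, the latter being GANAB (0.897), TPP2 (0.909) and UGGT1 (0.948). The chaperone genes CALR (calreticulin), CANX (calnexin) and PDIA3 (ERp57), which serve class I folding and most other secreted proteins, had ratios of 1.07 (1.06 to 1.09), 1.02 (1.01 to 1.03) and 1.02 (1.01 to 1.04). ERAP1, which trims peptides to class I length, had a ratio of 1.01 (0.961 to 1.07). Among 11 proteasome counterparts, activators and assembly factors, 0 were at least 1.2-fold higher and 1 lower, beside the same shares of all kept genes, with a median of -0.04. By the interval alone, 3 of the 11 lay above 1 and 5 below it. The interferon-responsive activator subunits PSME1 and PSME2 had ratios of 1.09 (1.06 to 1.12) and 1.11 (1.07 to 1.15), while PSME3, the nuclear activator, was 1.23-fold lower. PSME4, another activator, had a ratio of 0.853 (0.830 to 0.876).

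Regulators of class I transcription were mixed. Of 36 listed, 35 were kept, 6 were at least 1.2-fold higher and 1 lower, with a median log2 ratio of 0.08. Beside these stand 8.32% of all kept genes called higher and 9.52% lower. By the interval alone, 24.6% of all kept genes lay above 1 and 26.4% below it. Among the 7 interferon-response factors, 3 were called higher and 5 had an interval above 1. IRF1, which binds the ISRE, had 4129 reads in shControl and 4955 in shPPIL1, a ratio of 1.18 (1.13 to 1.23). IRF9 and STAT2, which bind the ISRE in a complex, had ratios of 1.26 (1.17 to 1.35) and 1.201 (1.11 to 1.30). IRF7, with 48 reads in shControl and 73 in shPPIL1, had a ratio of 1.49 (1.02 to 2.20). STAT3, also among the 7, had a ratio of 1.15 (1.12 to 1.18). For IRF2 and IRF3 the intervals included equality, with ratios of 1.05 (0.939 to 1.18) and 0.958 (0.899 to 1.02). Of the 4 suppressors listed, 2 had an interval above 1 and 1 below it. The feedback suppressors SOCS1 and SOCS3 were both 1.51-fold higher (1.22 to 1.87 and 1.31 to 1.75). PTPN2 had a ratio of 0.912, with an interval below 1, and USP18 one of 1.06, with an interval that includes 1. Of the 7 receptor chains and kinases, 2 had an interval above 1 and 1 below it. The kinases JAK1 and JAK2, which pass on the interferon signal, had ratios of 1.14 (1.11 to 1.17) and 1.14 (1.02 to 1.27). The kinase TYK2 and the receptor chain IFNAR2 had ratios of 1.05 (0.977 to 1.13) and 0.948 (0.865 to 1.04), with intervals that include 1. IFNAR1, a chain of the type I interferon receptor, was 1.44-fold lower, and the interferon gamma receptor chains IFNGR1 and IFNGR2 had ratios of 1.02 (0.973 to 1.06) and 0.985 (0.917 to 1.06).

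NLRC5, the transactivator of class I genes, was little expressed, with 125 reads in shControl and 155 in shPPIL1, or 0.533 and 0.659 FPKM. Its ratio was 1.22 (0.956 to 1.55), an interval that includes equality. The RFX proteins carry NLRC5 to class I promoters. RFX5 had a ratio of 1.07 (1.02 to 1.13), RFXANK 1.17 (1.07 to 1.27) and RFXAP 1.34 (0.999 to 1.80). NFYA, a subunit of the CCAAT-binding factor, and CREB1, which binds the CRE, both had ratios of 0.889, with intervals below 1. For NFYB, NFYC and ATF1 of the same list the intervals included 1. Their ratios were 0.934 (0.849 to 1.03), 1.01 (0.963 to 1.06) and 1.03 (0.961 to 1.09). Of the 5 NF-kappaB subunits, 3 had an interval above 1 and 0 below it, beside 24.6% and 26.4% of all kept genes. RELB was 1.24-fold higher (1.102 to 1.39), REL and NFKB1 had ratios of 1.15 (1.05 to 1.25) and 1.07 (1.01 to 1.13), and RELA had one of 1.00 (0.954 to 1.05).

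Other class I-like and class II genes were mixed. Of 15 class I-like heavy chains and stress ligands outside the members, 8 were kept, 0 were at least 1.2-fold higher and 2 lower, with a median log2 ratio of -0.03. That median joins a value of 0.15 for the 3 kept heavy chains and -0.14 for the 5 kept stress ligands. Over all kept genes, 8.32% were called higher and 9.52% lower. Of the heavy chains, FCGRT had a ratio of 1.11 (1.04 to 1.19), HFE, which controls iron uptake, 1.11 (0.980 to 1.25), and MR1, which shows vitamin B metabolites, 1.00 (0.798 to 1.26). The 2 genes called lower were the stress ligand genes ULBP1 and ULBP3, whose products are read by natural killer cells through NKG2D, and they were 1.45-fold and 1.30-fold lower. MICA and MICB, ligands of the same receptor, had ratios of 0.957 (0.731 to 1.25) and 0.908 (0.838 to 0.983), and ULBP2 had a ratio of 1.15 (1.01 to 1.31). Of 13 class II presentation genes, 7 had 0 reads in both libraries and 3 were kept, of which HLA-DMB was 1.22-fold lower. A count of 0 in a library allows up to 3 reads. CIITA, the class II transactivator, had 100 reads in shControl and 113 in shPPIL1, with a ratio of 1.11 (0.841 to 1.47).

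**Figure D5:**
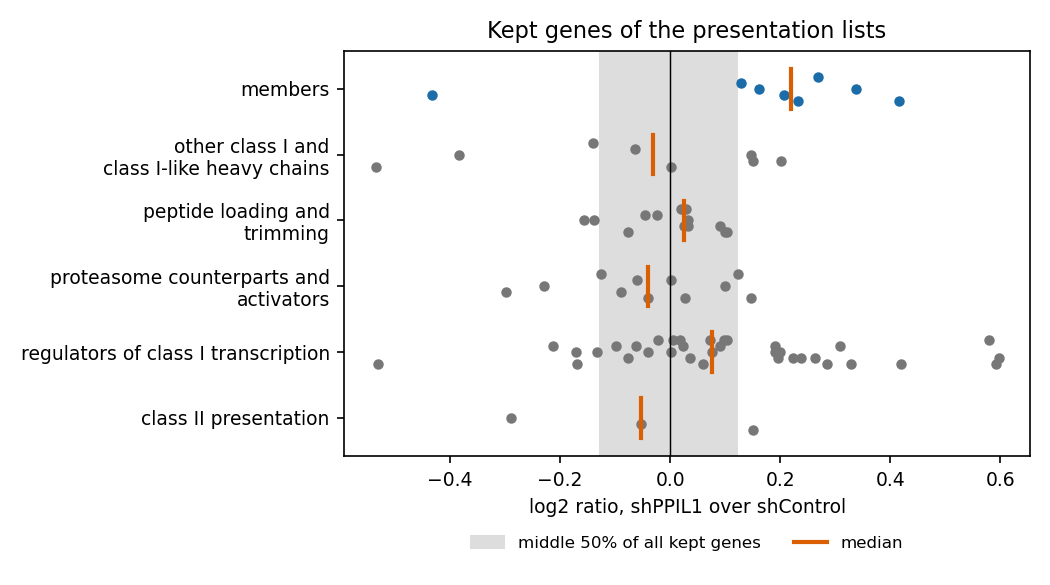
The log2 ratio of shPPIL1 over shControl of each kept gene in 6 lists of antigen presentation genes, 1 point per gene (vertical scatter only separates points), with the list median in orange and the middle 50% of all kept genes as a band. The members' median of 0.22 lies to the right of the band, and the medians of the other lists, from -0.05 to 0.08, lie inside it. Some smaller groups within those lists have medians beyond the band on either side. These include 0.24 for the 7 interferon-response factors and 0.34 for the 4 suppressors, 2 called higher and 1 with an interval below 1. They also include 0.15 for the 3 kept class I-like heavy chains and -0.14 for the 5 kept stress ligands.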

How the data were processed

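Polyadenylated RNA was sequenced from 1 shControl and 1 shPPIL1 library of Huh7 cells. The authors deposited raw counts per gene and, for each library, FPKM values. Build hg38 is listed, per the submitters' processing notes, while the aligner, counter, annotation and strand setting are not stated in any source used. Columns were tied to libraries through the column names in the labels, and 7 further columns of counts that match no label were used in no step. The deposited FPKM, set against the counts and library totals, gave whole-number gene lengths (tolerance 0.001 bases) for 99.9% of genes above 0.

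Library sizes were scaled with TMM factors (edgeR 4.0.16, R 4.3.3) of 0.993 (shControl) and 1.01 (shPPIL1). A gene was kept at 1 CPM or more in at least 1 library. A ratio is shPPIL1 over shControl, with a Clopper-Pearson interval. A gene was called at 1.2-fold with an interval that excludes 1. Equal counts of 100 reach an interval bound of 1.33-fold, and equal counts of 1000 reach 1.09-fold. PCR reads without molecular identifiers are not independent molecules. Cross ratios of 10 pairs of genes have exact conditional intervals (scipy 1.17.1). Positions and promoters came from RefSeq (GRCh38.p14), which held no promoter window used here for HLA-E, and exons and transcripts from GENCODE release 29. Shared sequence was sought in 100-base windows every 10 bases. The interval and the 1.2-fold rule were tested on simulated counts that hold counting error only, and the other steps were not. Alternatives were DESeq2 1.42.0 size factors, no factor, other folds and filters, and FPKM with a pseudocount. Named genes are the members, PPIL1 and genes of lists written for this pathway, and members and lists were chosen with earlier results of these data known. Some genes of the pathway are not reported here.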

Additional observations from a re-analysis of the deposited data

How the results depend on the processing

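With 1 library per group, no replicate could be left out and no result has a test. No paired analysis was possible because each group has 1 library. Under DESeq2 size factors, under library totals with no factor, without a filter on low counts and at 5 CPM, the count of members at least 1.2-fold higher was 3, as reported. Among all kept genes, 8.63%, 9.77%, 8.43% and 7.04% were called higher under these settings, in that order. The count of members followed the fold: it was 6 at 1.1-fold and 0 at 1.5-fold, where 17.5% and 2.02% of all kept genes were called higher. The count of members called lower was 0 under both other scalings and at 1.1-fold, where 9.31%, 8.16% and 19.0% of all kept genes were called lower. The median log2 ratio was 0.20 over the 6 members that are not HLA heavy chains. Over the 8 kept it ran from 0.21 with log2(FPKM + 1) to 0.24 with library totals, which moved the median of all kept genes to 0.02. All 36 values of single members under another scaling or with log2(FPKM + 1) or log2(FPKM + 0.1) kept their sign and lay within the counting interval. That outcome was largely fixed in advance. A pseudocount added to both levels cannot change the sign, and the scaling factors were close to 1. With log2(FPKM + 1) the value of HLA-B moved from -0.95 to -0.17, still inside its wide interval. HLA-B, at 19 and 10 reads, and PSMB8, at 57 and 43 reads, are limited by depth.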
